A study of Mus musculus with 3 samples.

Results

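The transcripts of 7 islet hormone genes, Ins1, Ins2, Iapp, Gcg, Sst, Ppy and Pyy, were followed in immune cells sorted from the mouse pancreas. The genes were chosen by symbol, as the hormone genes of the islet endocrine cells, and they are 7 of the 31053 genes in the count matrices. Live CD45+ cells were sorted from digested pancreas and profiled by droplet single-cell RNA sequencing, in which each droplet's barcode tags the 3' ends of polyadenylated transcripts and a unique molecular identifier (UMI) marks each captured molecule. There were 3 libraries, 1 per group, from young adult C57BL/6J mice, whose number per library is not given in the sources used here: PBS, the vehicle, and WGP, a particulate β-glucan from yeast, given once into the peritoneum 3 or 7 days before harvest. The mice were wild type, of both sexes. Each library held both cells with Xist and cells with chromosome Y transcripts, so each came from more than 1 mouse, but no barcode could be tied to its mouse. With 1 library per group there was no replicate, no test was made, and every interval given is a 95% interval for counting error only. A difference between treatments therefore cannot be told apart from a difference between 3 preparations.

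Islets of Langerhans are small clusters of endocrine cells scattered through the exocrine pancreas, which is built of acinar cells that make digestive enzymes. Beta cells make insulin (from Ins1 and Ins2 in mice) and amylin (Iapp), alpha cells glucagon (Gcg), delta cells somatostatin (Sst) and PP cells pancreatic polypeptide (Ppy), while peptide YY (Pyy) is made in several islet cell types. These hormones are not typical products of immune cells, and droplets of a digested tissue also capture RNA that was free in the suspension.

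Insulin is encoded by a pair of genes in the mouse, and they are nearly identical over part of their length. The stretch of 90 coding bases at which Ins1 and Ins2 are most alike shows this, with capitals marking the 2 bases that differ (97.8% identical). The Ins1 stretch lies in exon 2 of 2 at chr19:52264721-52264810 on the plus strand and the Ins2 stretch in exon 2 of 3 at chr7:142679347-142679436 on the minus strand (GRCm38, GENCODE annotation). The longest run of letters shared by both transcripts was 56 bases.
Ins1: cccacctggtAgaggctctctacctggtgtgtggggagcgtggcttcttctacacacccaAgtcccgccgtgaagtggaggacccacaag
Ins2: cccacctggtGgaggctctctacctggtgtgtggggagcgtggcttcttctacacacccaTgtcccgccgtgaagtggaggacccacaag
Ppy and Pyy are relatives of another kind, neighbours on the minus strand of chromosome 11 with 5356 bases between their gene models. Their most alike 90 coding bases, which span exons 2 and 3 of 4 in both genes (chr11:102100278-102100604 and chr11:102107051-102107248), differ at 38 positions, again in capitals, and share no run over 10 bases in the whole transcripts.
Ppy: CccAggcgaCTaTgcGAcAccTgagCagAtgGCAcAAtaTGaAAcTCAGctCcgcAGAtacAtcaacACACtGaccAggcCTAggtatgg
Pyy: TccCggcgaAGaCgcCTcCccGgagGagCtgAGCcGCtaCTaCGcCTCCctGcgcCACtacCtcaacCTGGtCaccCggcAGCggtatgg
Whether the likeness of Ins1 and Ins2 affected the split of UMIs between them was not measured. Their sum is therefore the value compared, and the separate values of each are given as deposited. Ppy and Pyy are read separately. The other members lie on chromosome 6 (Iapp, overlapped by Slco1a5 on the opposite strand), chromosome 2 (Gcg) and chromosome 16 (Sst). Because 1 UMI stands for 1 transcript end, levels are compared between genes without a correction for length.

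The libraries held 52464690 (PBS), 56849043 (3-day WGP) and 48219246 (7-day WGP) UMIs. Barcodes of 1 to 100 UMIs were taken as droplets without a cell, whose UMIs come mainly from RNA free in the suspension, and they held 4033894, 3941221 and 4641398 UMIs. Barcodes of 500 or more UMIs, mostly cells, numbered 6622, 5635 and 5434, and libraries shared between 3 and 13 of these barcodes pairwise. After limits on mitochondrial and ribosomal-protein UMIs and removal of likely doublets, 5148, 4834 and 4227 cells were kept. Ptprc, which encodes CD45, was present in every immune class.

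In free RNA, insulin transcripts were lowest in the 3-day WGP library and lay between the others in the 7-day WGP library. Ins2 gave 647 UMIs in the PBS library, 50 in the 3-day WGP library and 445 in the 7-day WGP library, and Ins1 gave 246, 18 and 181. As CPM, a gene's UMIs scaled to the same total of UMIs in every library, insulin stood at 221 (207 to 236), 17.3 (13.4 to 21.9) and 135 (125 to 146). The 3 intervals do not overlap. Against PBS, insulin was 12.8-fold lower at 3 days, a log2 ratio of -3.68 (-4.06 to -3.32), and 1.64-fold lower at 7 days, a log2 ratio of -0.71 (-0.86 to -0.57). As counted, Ins2 outnumbered Ins1 by 2.63 (2.27 to 3.06), 2.78 (1.59 to 5.06) and 2.46 (2.06 to 2.94) to 1 in the 3 libraries, intervals that overlap.

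The hormones of the other islet cells differed from insulin in their pattern. Gcg, the precursor of glucagon, gave 28 UMIs of free RNA in the PBS library, 0 in the 3-day WGP library and 1 in the 7-day WGP library. Of the 28, 10 came from 1 barcode of 42 UMIs in all. The count of 0 at 3 days had an upper bound of 0.936 CPM, and with 3 counts in its place the log2 ratio to PBS was -3.19. Sst went the other way at 3 days, with 14, 104 and 1 UMIs, or 3.47 (1.90 to 5.82), 26.4 (21.6 to 32.0) and 0.215 CPM from 1 UMI. Its 3-day level was 7.60-fold higher than in PBS, a log2 ratio of 2.93 (2.12 to 3.85). Pyy appeared in free RNA of the 3-day WGP library alone, with 0, 20 and 0 UMIs. Ppy stayed at 3, 1 and 0 UMIs, too few to set an order. Iapp, although a beta cell product, gave 30, 23 and 27 UMIs, and its log2 ratios to PBS of -0.35 (-1.20 to 0.48) and -0.35 (-1.16 to 0.45) include 0.

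The ratio of Iapp to insulin shows how far the makeup of the 3-day WGP library differed. For each 100 insulin UMIs of free RNA there were 3.36 (2.25 to 4.83) Iapp UMIs in the PBS library and 4.31 (2.82 to 6.34) in the 7-day WGP library, against 33.8 (20.1 to 55.0) in the 3-day WGP library.

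**Figure D1:**
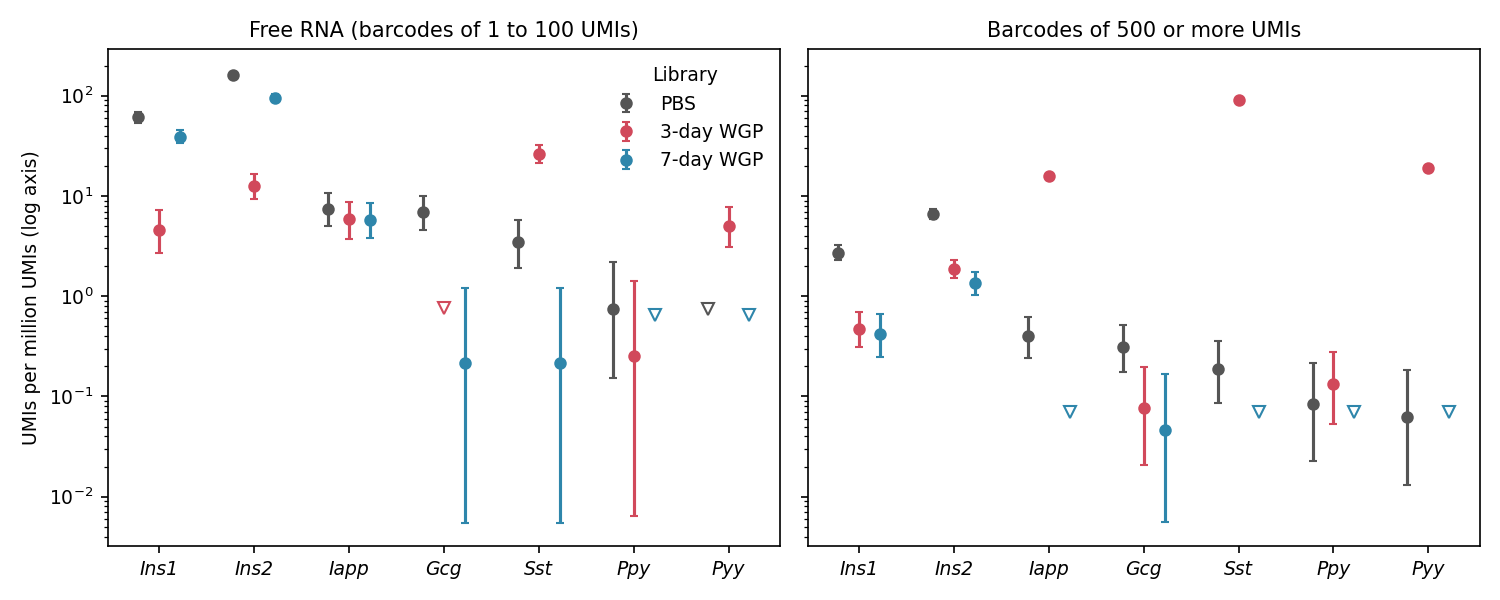
Level of each hormone gene in CPM (log axis), in free RNA on the left and in barcodes of 500 or more UMIs on the right, by library. Points carry 95% Poisson intervals and open triangles mark the level of 3 counts where no UMI was seen. Ins1 and Ins2 of the 3-day WGP library lie far below the other libraries in free RNA, and its Sst, Pyy and Iapp stand highest of all among barcodes of 500 or more UMIs.

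Few genes of free RNA were as far below PBS as insulin at 3 days, which was not so at 7 days. Of 10854 genes with at least 30 UMIs of free RNA over the 3 libraries, 1.91% were at least 2-fold lower in the 3-day WGP library than in PBS, on the scale of CPM + 1, and 3.75% were at least 2-fold higher. At 7 days 3.22% were lower and 5.68% higher. Ins1, Ins2, Iapp and Sst had enough UMIs to be counted, and Gcg, Ppy and Pyy did not. At 3 days Ins2 (log2 ratio -3.56) and Ins1 (-3.48) were lower, with 1 gene of the 10854 below both, and Sst (2.61) was higher. Sst passed the minimum mainly through the 3-day WGP library itself, where it was high. At 7 days Sst was lower (-1.88, from 14 and 1 UMIs, but -0.70 and within 2-fold with a pseudocount of 5 CPM), and Ins1 (-0.63), Ins2 (-0.74) and Iapp (-0.31) were within 2-fold, with 779 genes (7.18%) as low as Ins1 or lower and 615 (5.67%) as low as Ins2 or lower. The median over all genes counted was 0.10 at 3 days and 0.11 at 7 days.

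**Figure D2:**
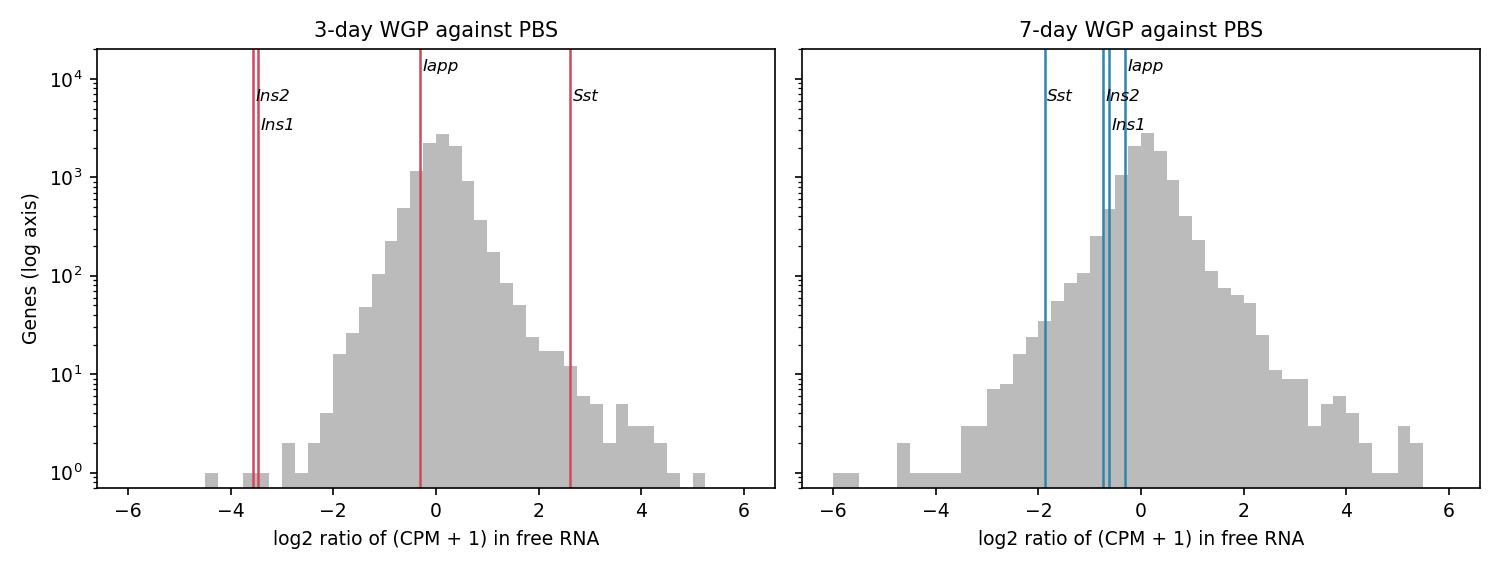
Number of genes (log axis) by log2 ratio of CPM + 1 in free RNA, 3-day WGP against PBS on the left and 7-day WGP against PBS on the right, over 10854 genes. Lines mark Ins1, Ins2, Iapp and Sst. At 3 days both insulin genes sit at the far left of the distribution and Sst at its right.

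Acinar transcripts, the other pancreatic parenchymal source, moved less. The 24 acinar genes present, led by Ctrb1, Clps and Prss2, made up 15380 CPM of free RNA in PBS, 8361 CPM at 3 days and 15216 CPM at 7 days. Of the 22 counted, 4 were at least 2-fold lower and 0 higher at 3 days (median log2 ratio -0.80), and 1 was lower and 2 higher at 7 days (median -0.04). The 4 haemoglobin genes had medians of -0.76 and -0.80. The insulin of free RNA was thus 14.4, 2.06 and 8.86 UMIs per 1000 acinar UMIs in the 3 libraries, so that it differed between libraries relative to acinar RNA too. The islet granule genes, which process and store the hormones, gave 32, 31 and 16 UMIs of free RNA in all and none of the 15 was frequent enough to be counted.

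Part of the hormone RNA lay several UMIs to a barcode. In the PBS library 108 barcodes of 1 to 100 UMIs held 2 or more hormone UMIs and together carried 328 of the 968 hormone UMIs. In the 7-day WGP library 62 such barcodes carried 254 of 655, and in the 3-day WGP library 10 carried 37 of 216. The richest was a PBS barcode of 468 UMIs, above the limit for free RNA and below that for cells, of which 361 UMIs (77.1%) were hormone transcripts: 272 Ins2, 69 Ins1 and 20 Iapp, with 0 acinar UMIs and 0 Ptprc UMIs. Smaller examples were a PBS barcode of 56 UMIs with 32 hormone UMIs (57.1%) and 7-day WGP barcodes of 47 and 39 UMIs with 26 (55.3%) and 20 (51.3%). In the 3-day WGP library the richest barcode under 500 UMIs held 12 hormone UMIs of 43 (27.9%). Leaving out the single richest barcode of 1 to 100 UMIs lowered the hormone level of free RNA from 240 to 232 CPM in PBS, from 54.8 to 51.8 at 3 days and from 141 to 136 at 7 days.

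Where along the range of barcode size the hormone RNA lay also differed between libraries. In PBS the insulin level was 147 CPM in barcodes of 1 to 10 UMIs, 275 in those of 11 to 50 and 503 in those above 100 and below 500, which include the barcode of 361 hormone UMIs, and 3.23 in those of 10000 or more. In the 7-day WGP library it was 25.5 CPM in barcodes of 1 to 10 UMIs and 192 in those of 11 to 50, which held 614 of the 655 hormone UMIs of free RNA. In the 3-day WGP library the same ranges gave 9.86 and 28.9 CPM. The hormone level of free RNA therefore depended on its upper limit, and with a limit of 10 UMIs it was 154, 41.4 and 26.5 CPM in the PBS, 3-day WGP and 7-day WGP libraries, which places the 7-day WGP library lowest. For insulin alone, the 3-day WGP library was lowest in each of the ranges of 1 to 10 (9.86 CPM), 11 to 50 (28.9 CPM) and 51 to 100 UMIs (8.51 CPM), the last with intervals that overlap those at 7 days.

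**Figure D3:**
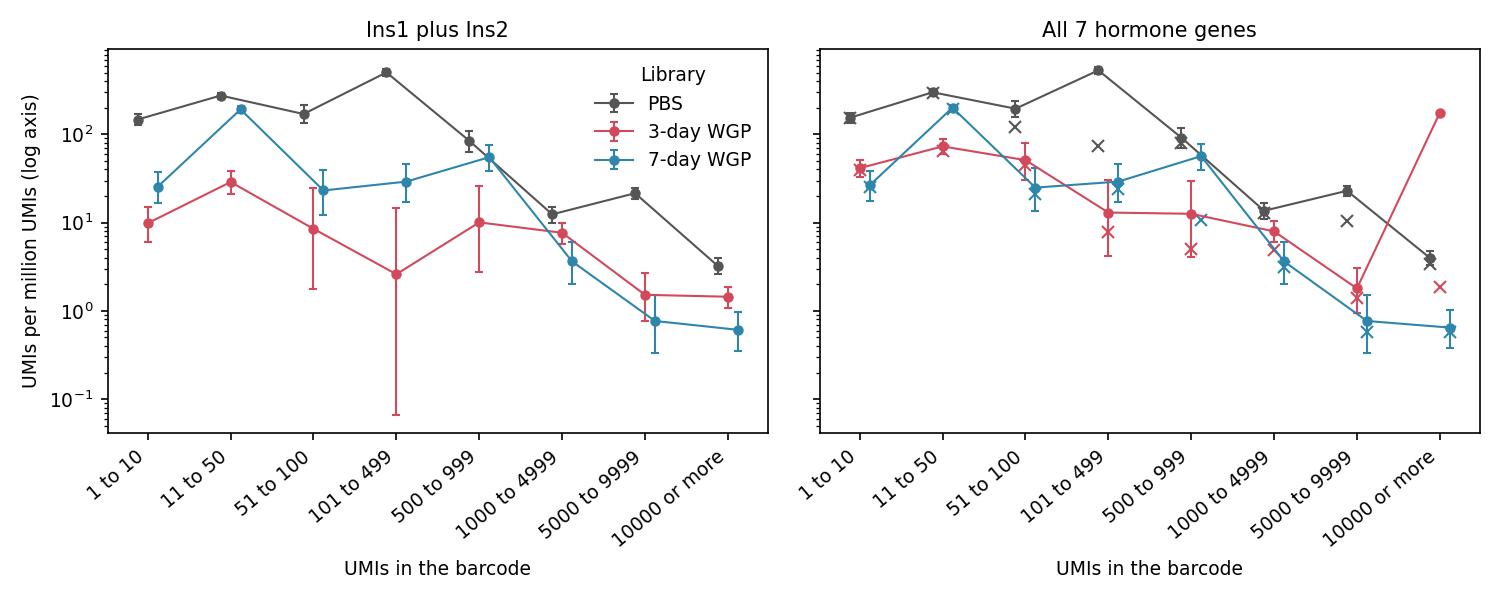
Level of insulin (left) and of all 7 hormone genes (right) in CPM (log axis) against the number of UMIs in the barcode, by library, with 95% Poisson intervals. Crosses on the right give the level without the barcode richest in hormone UMIs. The rise of the 3-day WGP library at 10000 or more UMIs vanishes without 1 barcode, and the PBS peak between 100 and 500 UMIs drops.

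Barcodes of 500 or more UMIs held a far lower hormone level (CPM) than free RNA, apart from 1 cell. In these barcodes the 7 genes gave 494 UMIs in PBS, 6747 at 3 days and 78 at 7 days, or 10.4 (9.48 to 11.3), 128 (125 to 132) and 1.81 (1.43 to 2.26) CPM. Without the single barcode of most hormone UMIs the levels were 7.94, 2.72 and 1.12 CPM. Insulin alone gave 9.32 (8.47 to 10.2), 2.34 (1.95 to 2.79) and 1.77 (1.39 to 2.21) CPM, again lower in both WGP libraries, with log2 ratios to PBS of -1.99 (-2.29 to -1.70) and -2.40 (-2.77 to -2.04). Barcodes over the mitochondrial limit carried more than kept cells in PBS (70.6 against 9.36 CPM) and at 7 days (35.9 against 0.976 CPM), where 30 of their 38 hormone UMIs came from 1 barcode of 503 UMIs. At 3 days the values were 10.7 CPM, from 6 UMIs, against 138 CPM. There 1 barcode held 6604 of the 6728 hormone UMIs of kept cells.

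The 3-day WGP library contained 1 barcode with the profile of an endocrine cell. Of its 27451 UMIs 6604 (24.1%) were hormone transcripts: 4793 Sst, 987 Pyy, 816 Iapp, 7 Ppy and 1 Ins2, with 0 Ins1 and 0 Gcg. It held 5873 genes and 750 UMIs of granule genes, among them Resp18 (195), Scg2 (106), Chgb (98), Chga (84) and the prohormone convertase Pcsk2 (81), and also Abcc8 (22), a subunit of the islet KATP channel, Pax6 (10) and Pdx1 (4), transcription factors of islet cells. Hhex, the transcription factor of delta cells, had 2 UMIs. Epcam, an epithelial surface marker, had 15 UMIs and Ptprc 0, so that no CD45 transcript was detected in it despite the sort. Only 10 of its UMIs were acinar. It fell in cluster 21, led by Cxcl13, Clu, Igfbp7 and Dcn, which was given no cell type name.

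That barcode accounted for nearly all Sst, Pyy and Iapp of the larger barcodes of its library: without it, barcodes of 500 or more UMIs at 3 days held 9 Sst, 2 Pyy and 6 Iapp UMIs, beside 9, 3 and 19 in all such barcodes of PBS. The free RNA of the same library held these genes in similar ratios. For each 100 Sst UMIs there were 20.6 (19.2 to 22.1) Pyy UMIs in the barcode and 19.2 (11.3 to 31.2) in free RNA, and 17.0 (15.8 to 18.3) and 22.1 (13.4 to 35.0) Iapp UMIs. The 104 Sst UMIs of free RNA were spread over 99 barcodes. Of these, 2 differed from the Sst-rich barcode at 1 base, and the median was 11 differing bases, against 12 for other small barcodes. Whether the Sst of free RNA came from this cell was not tested.

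Kept cells were clustered without the 7 hormone genes and named by marker lists, giving 10 immune classes per library. Most hormone UMIs of immune classes in PBS and at 3 days lay in the monocyte/macrophage class. In PBS that class of 760 cells held 298 of the 364 hormone UMIs of immune classes (81.9%), at 3 days 741 cells held 91 of 122 (74.6%) and at 7 days 1412 cells held 15 of 31 (48.4%). Its level was 36.1 (32.2 to 40.5), 8.17 (6.58 to 10.0) and 0.91 (0.51 to 1.51) CPM. B cells stood at 1.88 (1.16 to 2.87), 2.47 (1.23 to 4.41) and 1.36 (0.37 to 3.48) CPM. The monocyte/macrophage class was thus 19.3-fold above B cells in PBS and 3.31-fold at 3 days, with intervals apart, and at 7 days the intervals overlapped. Single cells of the class held 116 of the 298 UMIs in PBS and 30, 21, 9 and 7 of the 91 at 3 days. The intervals treat these UMIs as independent, so the 3-day difference was not shown to hold without those cells.

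The transcripts in the class were chiefly those of beta cells. In PBS it held 206 Ins2, 75 Ins1, 10 Iapp, 4 Gcg, 2 Ppy, 1 Sst and 0 Pyy UMIs. At 3 days it held 63 Ins2, 18 Ins1, 6 Sst and 4 Iapp UMIs, and 0 of Gcg, Ppy and Pyy, although free RNA of that library held more Sst than insulin. At 7 days it held 12 Ins2, 2 Ins1 and 1 Gcg UMIs. Of the 15 genes of the hormone granules, 8, 0 and 0 UMIs were found in the class in the 3 libraries, beside 281, 81 and 14 insulin UMIs. In PBS free RNA there were 32 beside 893 insulin UMIs. In the PBS barcode of 361 hormone UMIs there were 3 beside 69 Ins1 and 272 Ins2 UMIs, so that granule transcripts were few beside insulin there too. Free RNA at 7 days held 16 beside 626 insulin UMIs, whereas at 3 days it held 31 beside 68, which is not few. Of that list, Pcsk1, Resp18 and Cpe had the most UMIs in barcodes of 500 or more UMIs of all classes together. All 195 Resp18 UMIs there lay in the Sst-rich barcode of the 3-day WGP library. In PBS the list's level was highest in ILC2 (112 CPM, 134 UMIs), which held no insulin UMI.

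A share of cells with a hormone UMI rises with depth, so cells were also thinned to 1000 UMIs each. Without thinning 7.76% (5.96% to 9.90%) of monocytes/macrophages in PBS, 2.83% (1.76% to 4.30%) at 3 days and 0.85% (0.44% to 1.48%) at 7 days had a hormone UMI, at median depths of 10249, 14021 and 10791 UMIs. In B cells, with medians of 3662, 4041 and 4902 UMIs, the shares were 17 of 1900, 6 of 808 and 4 of 500 cells. Thinning left out 2, 8 and 21 monocytes/macrophages as too shallow, and 12, 15 and 9 B cells. The shares of monocytes/macrophages were then 1.72% (0.92% to 2.91%), 0.819% (0.301% to 1.77%) and 0 of 1391 cells, with an upper bound of 0.265%. The thinned shares of B cells were 0.318% (0.117% to 0.690%), 0.126% (0.0032% to 0.701%) and 0.407% (0.049% to 1.46%). At equal depth the PBS monocytes/macrophages were above B cells, the 3-day intervals overlapped, and at 7 days no difference was detectable.

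Each class was set against the free RNA of its own library by hormone UMIs per 1000 acinar UMIs. A class was called above free RNA when its lower bound exceeded the upper bound of free RNA both with all its cells and without its cell of most hormone UMIs. Free RNA stood at 15.6 (14.6 to 16.6), 6.55 (5.71 to 7.49) and 9.27 (8.58 to 10.0). These pooled values hide a spread with barcode size that their intervals do not cover. In barcodes of 1 to 10, 11 to 50 and 51 to 100 UMIs the measure was 27.7, 16.2 and 6.60 in PBS, 11.8, 5.82 and 2.87 at 3 days and 12.2, 11.1 and 1.05 at 7 days. Of 30 pairs of an immune class and a library, 1 was called. The monocyte/macrophage class at 3 days had 38.7 (31.0 to 47.7) hormone UMIs per 1000 acinar UMIs and 25.9 (19.8 to 33.4) without its top cell, above each of the 3 ranges of free RNA in its library. Of its 91 hormone UMIs, single cells held 30, 21, 9 and 7, with 0, 2, 0 and 0 acinar UMIs. The rule left out only the richest of these cells, and the value without the others was not computed. Most of the 91 UMIs thus lay in these few cells. The intervals treat UMIs as independent, so the call was not shown to hold without these cells. In PBS it had 22.4 (19.9 to 25.2), above the pooled free RNA but below that of barcodes of 1 to 10 UMIs, and 13.7 (11.8 to 15.9) without 1 cell of 116 hormone UMIs, and at 7 days 5.53 (3.09 to 9.13), not above. Neutrophils at 3 days had 41.0 (19.4 to 76.7), all 10 UMIs in 1 cell, and plasmacytoid dendritic cells at 7 days 250 (25.9 to 1253), from 2 UMIs against 8 acinar ones. No pair of an immune class and a library lay below free RNA by its interval, and B cells in PBS, at 9.60 (5.93 to 14.7), came nearest to it.

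**Figure D4:**
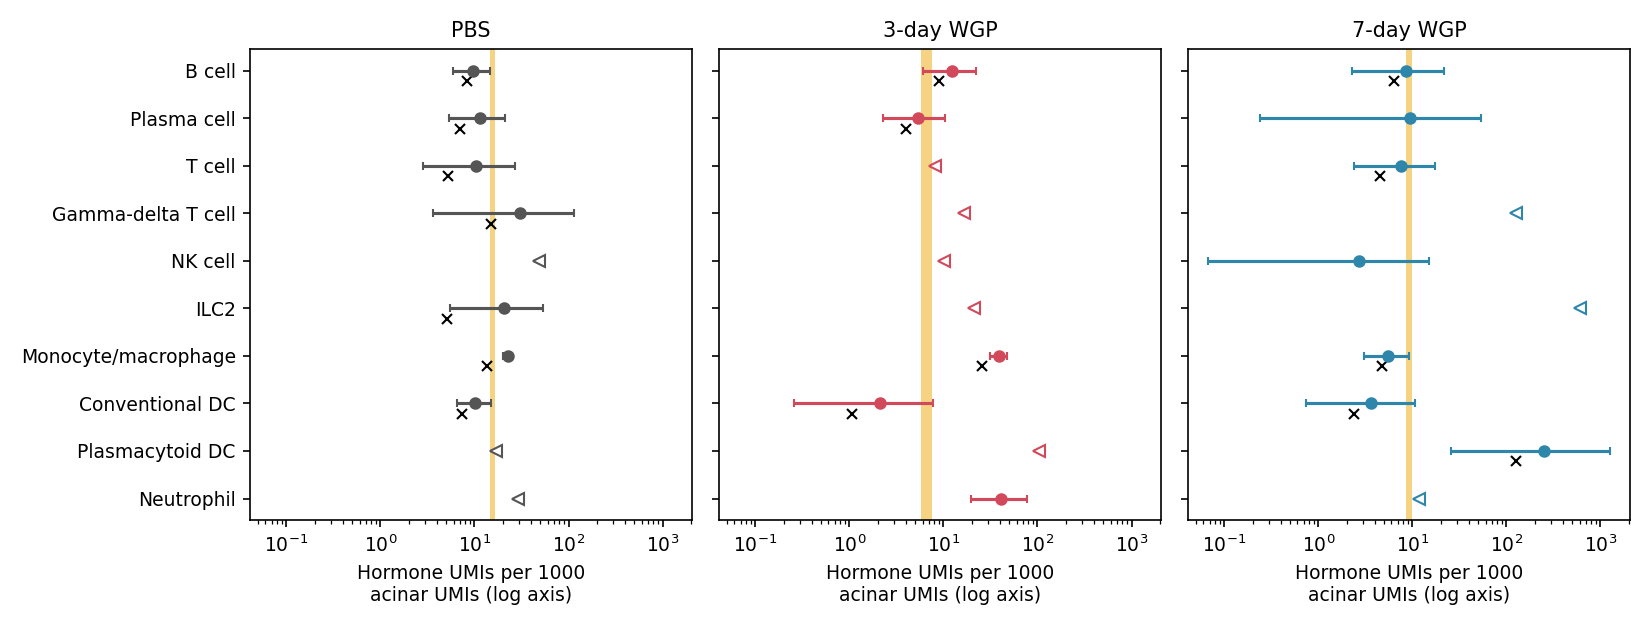
Hormone UMIs per 1000 acinar UMIs (log axis) in each immune class, by library. Points carry 95% Clopper-Pearson intervals, and black crosses leave out the cell of most hormone UMIs (none where nothing remains). Open triangles mark the value at 3 counts where no hormone UMI was seen, and the band is the interval of free RNA. The monocyte/macrophage class at 3 days lies to the right of the band with and without its top cell.

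Acinar RNA was itself unevenly held, which bears on that measure. Monocytes/macrophages in PBS had 1610 acinar CPM, 8.24-fold the level of B cells (195 CPM), whereas at 3 and 7 days the classes differed by 1.05-fold and 1.03-fold. In PBS, then, hormone and acinar transcripts were both raised in this class over B cells. With haemoglobin genes as the measure of free RNA in place of acinar genes, 5 of the 30 pairs were called: monocytes/macrophages (725 hormone UMIs per 1000 haemoglobin UMIs against an upper bound of 21.3 in free RNA) and conventional dendritic cells (145) in PBS, and B cells (94.0), plasma cells (77.7) and monocytes/macrophages (80.5) at 3 days against an upper bound of 8.59 in free RNA. With Ins1 and Ins2 alone, 1 pair was called, monocytes/macrophages at 3 days with 34.4 (27.2 to 43.0) per 1000 acinar UMIs against 2.06 in free RNA.

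The class held both sexes in unequal parts, and values within each were computed. In PBS 717 of the 760 monocytes/macrophages had Xist and no Y transcript, and they stood at 17.6 (14.8 to 20.7) CPM beside 0.93 (0.19 to 2.73) CPM in B cells with Xist. They had 10.7 (9.04 to 12.7) hormone UMIs per 1000 acinar UMIs, below the 15.6 of free RNA. The 7 with Y transcripts held 4 hormone UMIs, and 36 cells with neither held 153, of which 116 were in 1 cell. At 3 days 478 cells with Y transcripts held 62 hormone UMIs in 16 cells, 45.6 (34.8 to 58.9) per 1000 acinar UMIs and above free RNA also without their top cell, while 72 with Xist held 3, or 6.54 (1.34 to 19.2), not above. At 7 days cells with Xist had 10.9 (5.62 to 19.2) and cells with Y transcripts 1.76 (0.213 to 6.36). The part of sex or mouse in the difference between libraries was not tested.

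Within the class, 1 cluster held most of the hormone RNA in PBS and at 3 days, but not at 7 days. Cluster 9, marked by Pf4, Mrc1, Cbr2, Stab1 and Folr2, genes of tissue-resident macrophages, had 607 cells in PBS, 97 at 3 days and 30 at 7 days. It held 297, 73 and 2 hormone UMIs, which is 99.7%, 80.2% and 13.3% of those of the class. Its level was 45.4 (40.3 to 50.8), 84.1 (65.9 to 106) and 6.52 (0.79 to 23.5) CPM, and 27.7, 50.3 and 3.30 CPM without the top cell. The share of its cells with a hormone UMI was 9.56% (7.34% to 12.2%), 10.3% (5.06% to 18.1%) and 6.67% (0.82% to 22.1%), intervals that overlap. In cluster 9 the 3-day level (CPM) was above that in PBS, while over the whole class it was below. At 3 days, however, 3 of the 97 cells of cluster 9 held 30, 21 and 9 of its 73 hormone UMIs. The intervals treat these UMIs as independent, so the higher 3-day level was not shown to hold without these cells. Acinar RNA in cluster 9 stood at 1968, 1049 and 776 CPM.

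The macrophage clusters that filled the WGP libraries held little. Cluster 0, marked by Ly6i and Cxcl9, had 106, 200 and 1048 cells and 0, 1 and 6 hormone UMIs, and cluster 7, marked by Saa3 and Arg1, had 7, 429 and 333 cells and 0, 17 and 7. At 3 days their levels were 0.36 (0.0091 to 2.00) and 2.34 (1.36 to 3.75) CPM, both below cluster 9. In PBS, cluster 10, which was given no name because mast cell and acinar markers were both raised in it (Cma1, Mcpt4, Clps), held 24 hormone UMIs in 15 of 258 cells, 43.8 (28.1 to 65.2) CPM, close to cluster 9, with 7819 acinar CPM. A conventional dendritic cell cluster marked by Retnla and Cd209a came next among the immune clusters of PBS that were named, with 22 hormone UMIs in 10 of 245 cells, 6.41 (4.02 to 9.70) CPM.

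**Figure D5:**
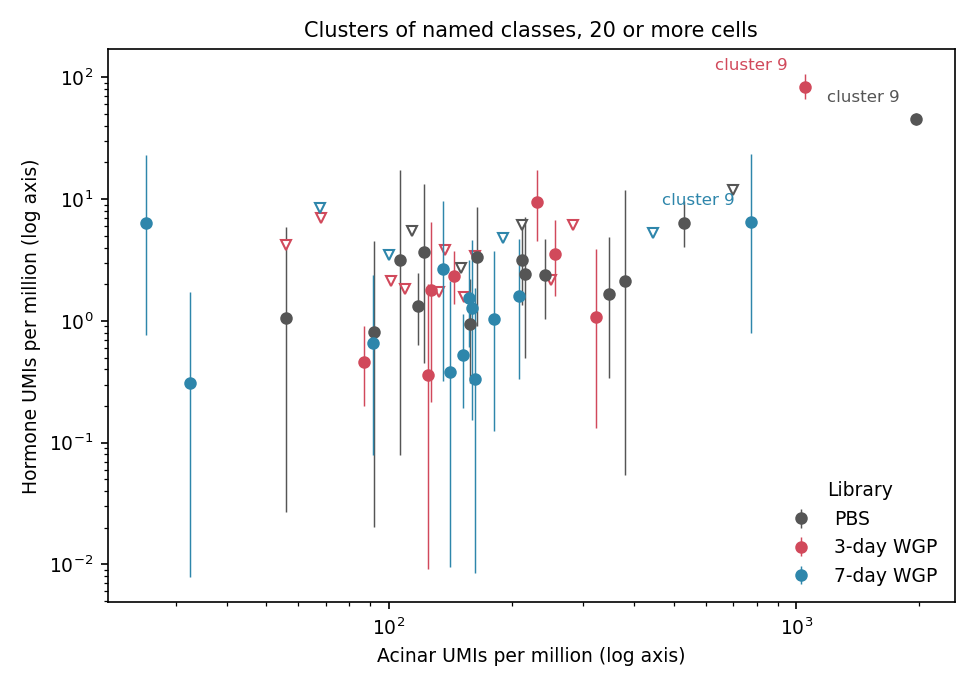
Hormone level against acinar level in CPM (both log axes) for clusters of named classes with 20 or more cells, 1 point per cluster and library, with 95% Poisson intervals and open triangles at the level of 3 counts where no hormone UMI was seen. Cluster 9 stands apart at upper right in PBS and at 3 days and is raised in acinar RNA at 7 days as well.

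Single cells held much of the insulin of the class. The PBS cell of 116 hormone UMIs held 85 Ins2, 28 Ins1 and 3 Iapp UMIs of 7014 in all, with 0 acinar and 0 granule UMIs and 2 Ptprc UMIs. In 10 further PBS cells of cluster 9, 5 or more hormone UMIs were found, of which the next 4 held 18, 17, 17 and 16, with 2, 20, 26 and 9 acinar UMIs. At 3 days the richest cell of cluster 9 held 30 hormone UMIs (22 Ins2, 7 Ins1 and 1 Iapp) of 12818 with 0 acinar UMIs, and the next 21 of 1915 with 2 acinar UMIs and 0 Ptprc UMIs. No macrophage of the 7-day WGP library held more than 2.

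Across 36 sums of a class and a library with at least 20 cells, the genes whose level followed insulin most closely among 12255 were Cd209g (Pearson's r = 0.69), Cgnl1 (0.67), Ccl24 (0.66), Pla2g2d (0.63) and F13a1 (0.62). Cd209g encodes a C-type lectin of the DC-SIGN family, Ccl24 a chemokine and F13a1 a coagulation factor subunit made by macrophages. The sums share libraries and depth, and without the monocyte/macrophage sums r was 0.45, 0.62, 0.45, 0.13 and 0.41, so that most of the likeness of Pla2g2d rested on that class.

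Transcripts of most receptors for these hormones were not detected in immune classes at this depth. Of 17 genes for receptors and their accessory proteins, 9 had no UMI in any immune class and 4 had 100 or more: Ramp1, Igf1r, Insr and Ramp3. The 9 included those for glucagon (Gcgr), GLP-1 (Glp1r) and calcitonin and amylin (Calcr). Insr, the insulin receptor, stood at 28.9 (25.3 to 32.8), 27.2 (24.2 to 30.4) and 18.3 (16.3 to 20.5) CPM in monocytes/macrophages and at 14.6 (12.4 to 17.0), 11.4 and 8.15 (5.22 to 12.1) CPM in B cells, so that the former were higher in each library. Igf1r, the receptor for insulin-like growth factor, reached 167, 221 and 229 CPM in neutrophils and 172, 113 and 127 CPM in gamma-delta T cells. Ramp1, an accessory protein of the calcitonin receptor family, was at 809, 964 and 577 CPM in gamma-delta T cells. Of the somatostatin receptors, Sstr2 had 6, 1 and 1 UMIs and Sstr3 0, 0 and 1.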

How the data were processed

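Single-cell libraries were made from live CD45+ pancreas cells with a 10x 3' v3.1 kit. Per the labels, the authors processed reads with Cell Ranger 3.1.0 against mm10 and deposited matrices of UMI counts, not normalized, for each library, including barcodes without cells. Counts were summed per gene and divided by all UMIs of the same barcodes (CPM). Barcodes of 1 to 100 UMIs stood for free RNA. Cells had 500 or more UMIs, at most 30% mitochondrial and 40% ribosomal-protein UMIs. The automatic threshold of Scrublet (scanpy 1.11.5) marked 0, 0 and 3 cells, so the cells of highest score were removed instead, at 0.8% per 1000 cells (232, 203 and 154). Clustering used Seurat 5.3.0 (SCTransform with 3000 variable genes, 30 components, Louvain resolution 0.8). A cluster was named for the marker list of highest mean log2 fold (pseudocount 20 CPM) if that mean was at least 1, led the second list by 0.5 and had 3 markers raised. Ratios of free RNA genes used a pseudocount of 1 CPM and 30 UMIs as minimum. Poisson and Clopper-Pearson intervals came from scipy 1.17.1 and figures from matplotlib 3.10.9. The scripts were tested on simulated data. Sequences came from GENCODE transcripts of GRCm38, the build of the files.

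The 7 genes, the lists and the rules were chosen with earlier results of these data known. Named list genes are the 3 of most UMIs in barcodes of 500 or more UMIs, and other genes of a list are named after their values were seen, as are Ramp3, Gcgr, Glp1r, Calcr, Sstr2 and Sstr3. Genes like insulin are the 5 of highest Pearson correlation of log2(CPM + 1). Alternatives covered UMI limits, doublets, normalization, resolution, the measure of free RNA and the pseudocount. 2 of 26 acinar genes were not found by symbol. One result of the islet identity list is not reported here.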

Additional observations from a re-analysis of the deposited data

Results flagged for a closer look

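Hormone genes whose level moved one way at 3 days and the other way at 7 days, each against PBS and with counting intervals clear of no change, are given here, and the difference between the days was not tested. Sst in free RNA was 2.93 log2 units higher at 3 days and -4.01 at 7 days, the latter from 1 UMI. In barcodes of 500 or more UMIs the log2 ratios at 3 days were 8.92 for Sst, 5.29 for Iapp and 3.63 for all 7 genes. These 3 rest on the single Sst-rich barcode, without which 9 Sst and 6 Iapp UMIs remained. At 7 days Sst and Iapp had no UMI in such barcodes, and with 3 counts in place of 0 their log2 ratios were -1.44 and -2.51. The upper bounds of their intervals at a count of 0 were -0.83 and -2.07. The log2 ratio of all 7 genes was -2.51.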

How the results depend on the processing

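With free RNA limited to barcodes of at most 10 UMIs, the hormone level was 154 CPM in PBS, 41.4 at 3 days and 26.5 at 7 days, which reverses the order of the WGP libraries, and at most 50 UMIs gave 157 CPM at 7 days. In barcodes of 500 or more UMIs, a lower limit of 1000 UMIs gave 9.22 CPM in PBS and 0.968 at 7 days, and an upper limit of 10000 UMIs gave 21.6, 5.02 and 3.95 CPM. Without the barcode of most hormone UMIs the levels were 7.94, 2.72 and 1.12 CPM. Mitochondrial and ribosomal limits gave 8.77 CPM in PBS and 0.961 at 7 days. The count of immune pairs above free RNA, 1 of 30 as reported, was 5 with haemoglobin as the measure, 2 with an upper limit of 10000 UMIs (monocytes/macrophages in PBS added) and 2 with log-normalized clustering (plasmacytoid dendritic cells at 7 days added). It was 0 with Xist cells only, 2 with Y cells only and 1 under the other alternatives run. The pair added with Y cells only was monocytes/macrophages in PBS, 7 cells with 4 hormone UMIs against 12 acinar ones. The pairs numbered 33 with the 10000-UMI limit, log-normalized clustering and resolution 1.6, and 30 otherwise. The alternatives of insulin genes only, Xist cells only and Y cells only were chosen after seeing the data. With a pseudocount of 5 CPM, 220 genes of free RNA were higher and 66 lower at 3 days, and 391 higher and 153 lower at 7 days, against 407, 207, 616 and 349, and Sst at 7 days was -0.70. With a minimum of 100 UMIs, 78 were lower at 3 days and 155 at 7 days. Except for the level limits above, the causes were not tested. No paired analysis was possible because each group is 1 library and no result comes from a test. Depth limits most members other than insulin, with 30 UMIs or fewer of free RNA per library, apart from Sst at 3 days.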
